A study of Rattus norvegicus with 24 samples.

Results

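The genes of insulin and insulin-like growth factor (IGF) signaling were followed in the retina of diabetic and control rats. The rule took every array probe whose RefSeq accession maps to 1 of 10 listed genes, and it found 11 probes of 8 genes among 33849 rat probes: Igf1, Igf2, Insr, Igf1r, Irs1, Igfbp3, Igfbp5 and Igfbp6. Irs2 and Igfbp2 had no matched probe and were not analysed here. All rats were male Sprague Dawley. The STZ groups had received a single intraperitoneal injection of streptozotocin (STZ), a toxin taken up by the insulin-producing beta cells of the pancreas, in citrate vehicle. The control groups had received the vehicle alone. Retinas were taken 1 month (1M Control, 1M STZ) or 3 months (3M Control, 3M STZ) after the injection, and each of the 4 groups held 6 arrays. The labels call them biological replicates, but the study's own list of animals holds fewer 1 month control rats than there are 1M Control arrays, so whether each of these came from its own rat is not settled. Only rats with high blood glucose entered the STZ groups, no insulin was given, and the age of the rats is not given in the sources used here. Whole retina was used, so fewer cells of a type and less RNA per cell cannot be told apart, and the 1 month and 3 month rats were separate sets, so time and processing cannot be told apart either.

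Insulin and the IGFs are secreted ligands. They bind the insulin receptor (Insr) and the IGF-1 receptor (Igf1r), which are tyrosine kinases. The receptors phosphorylate insulin receptor substrates such as Irs1, and from there the signal runs through PI3-kinase, Akt and mTOR to protein synthesis and through Ras to the MAP kinases. Most IGF outside cells is held by IGF binding proteins (Igfbp), which set how much ligand is free. In the retina this pathway is known for supporting the survival of neurons.

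The deposited values were background-subtracted spot intensities. They are given here as scaled intensity, the intensity divided by the median of the rat probes on the same array, and tests were run on log2 scaled intensity with limma in 1 model of the 4 groups. Probes with a 24-array median at or under a scaled intensity of 0.554 were set aside, which left 22025 for testing. A call needed a Benjamini-Hochberg adjusted p, over all tested probes, under 0.05 together with a difference of 1.2-fold or more. Of the 11 member probes 5 passed this limit, 1 each for Igf1, Igf2, Insr, Igf1r and Igfbp3. The other 6 (1 each of Insr, Igfbp3, Igfbp5 and Igfbp6, and both of Irs1) did not, and they are described from a fit of all 33849 rat probes. In that fit 0 of the 6 were called at 1 month, where the background was 0.0118% (4 probes, all higher) and the lowest unadjusted p of the 6 was 0.465.

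Facts of the arrays bear on every value at 3 months. The interquartile range of log2 intensity ran from 3.36 to 3.67 on the 1 month arrays, from 1.48 to 2.23 on the 3M Control arrays and from 2.07 to 2.70 on the 3M STZ arrays. The 62 probes for bacterial genes, which should find no target in a rat, had a median scaled intensity between 0.0589 and 0.137 on the 1 month arrays and between 0.447 and 0.750 on the 3 month arrays. The array 3M Control replicate 2 correlated less with its own group (median r 0.842 across the tested probes, which are not independent replicates) than any other array (0.916 to 0.980). Of all tested probes 54.1% were called at 3 months and the median log2 fold change was 0.44, so a member's difference is given with its distance from that median.

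At 1 month none of the 5 tested insulin and IGF genes differed between the groups. By limma 0 of 5 were called, 0 of 5 had an unadjusted p under 0.05, and the methods' test (which compares the groups without assuming equal variances, at p under 0.01 and 1.2-fold) called 0 of 5. The background by limma was 0.00908% of all tested probes called, which is 2 probes, with 927 at an unadjusted p under 0.05. By the methods' test it was 1.19% (262 probes). The log2 fold changes, STZ minus control, were 0.0029 for Igf1, 0.27 for Igf2, 0.048 for Insr, -0.067 for Igf1r and 0.014 for Igfbp3, each with a limma adjusted p of 0.9999. The 95% intervals set how large a difference could have been missed. The widest was that of Igf1, from -0.47 to 0.47, and that of Igf2 reached highest, from -0.11 to 0.65.

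At 3 months 1 of the 5 was called, Igfbp3, which was higher in the STZ retinas, against 54.1% of all tested probes (50.5% higher and 3.55% lower). All 5 had a log2 fold change above 0, with a median of 0.33 beside 0.44 over all tested probes. For none of the 5 were the STZ and control arrays fully apart, a separation seen for 10.2% of all tested probes at 3 months and 0.545% at 1 month.

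**Figure D1:**
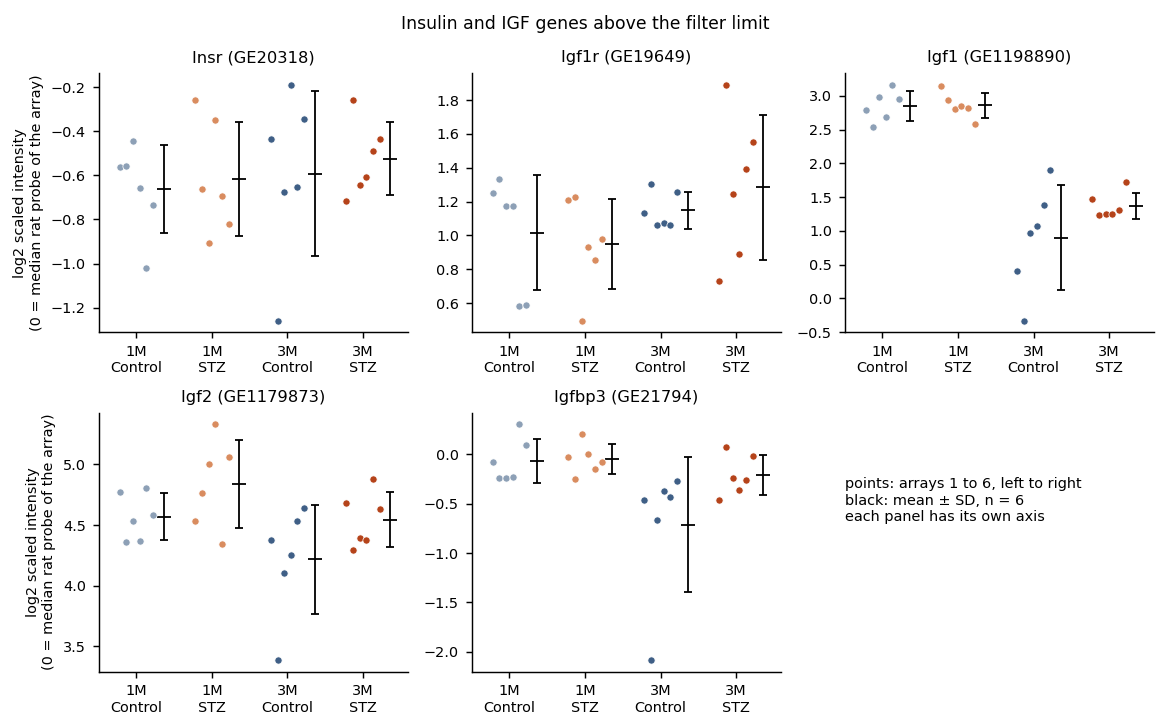
Log2 scaled intensity (y axis, 0 = the median rat probe of the array) of the 5 tested insulin and IGF genes in each array of the 4 groups (x axis), with the group mean and SD in black (n = 6). The lowest 3M Control point of Igf1, Igf2, Insr and Igfbp3 is the same array, replicate 2, and Igf1 lies lower on the 3 month arrays than on the 1 month arrays in both control and STZ rats.

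Igf1 encodes insulin-like growth factor 1, the main ligand of Igf1r. At 1 month its scaled intensity had a lowest, median and highest value of 5.83, 7.35 and 8.94 in control and of 6.00, 7.12 and 8.86 in STZ retinas. At 3 months these were 0.795, 2.03 and 3.73 in control and 2.35, 2.43 and 3.29 in STZ retinas. The 1 month groups lay over each other, and at 3 months all 6 STZ arrays were above the control median while none was above the highest control array. The log2 fold change at 3 months was 0.47 (SE 0.23, limma adjusted p = 0.0804), 0.028 above the median of all tested probes. Without 3M Control replicate 2, which held the lowest value, it was 0.23 (adjusted p = 0.313), and it passed the threshold without 3M Control replicate 5 (0.57, adjusted p = 0.0461) or replicate 6 (0.67, adjusted p = 0.00701). With the interquartile range of each array as a covariate it was -0.060 (adjusted p = 0.969).

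Every 3 month array had less Igf1 signal, relative to its median probe, than every 1 month array: the highest 3 month value was 3.73 and the lowest 1 month value 5.83. The rats of each time point were a separate set, so this is a description with no test. The Igf1 probe was over the bacterial 95th percentile on 23 of 24 arrays.

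Igf2 encodes the second IGF, a ligand made chiefly in fetal tissues and, in adults, in places such as the meninges and choroid plexus. It was bright on all arrays, over the bacterial 95th percentile on 24 of 24. Its lowest, median and highest scaled intensity at 1 month were 20.5, 23.5 and 28.0 in control and 20.3, 29.7 and 40.2 in STZ retinas. At 3 months they were 10.5, 19.9 and 24.96 in control and 19.6, 22.9 and 29.5 in STZ retinas. The groups overlapped at both times, with 3 STZ arrays above the highest control array at 1 month and 2 at 3 months. The log2 fold change at 3 months was 0.33 (SE 0.19, limma adjusted p = 0.133), 0.12 below the median of all tested probes, and its sign turned with the normalization: after quantile normalization, which gives every array the same distribution of values, Igf2 was called lower in STZ (-0.40, adjusted p = 0.0370). By median scaling it was 0.16 (adjusted p = 0.419) without 3M Control replicate 2. With the array's interquartile range as a covariate it was 0.043 (adjusted p = 0.973).

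The insulin receptor Insr had a pair of probes, and they did not give the same picture. On the tested probe, GE20318, the lowest, median and highest scaled intensity at 3 months were 0.418, 0.688 and 0.876 in control and 0.609, 0.684 and 0.836 in STZ retinas. The groups lay over each other, with a log2 fold change of 0.068 (SE 0.16, 95% interval -0.26 to 0.40, limma adjusted p = 0.724). Without 3M Control replicate 2 it was -0.065 (adjusted p = 0.718). This probe too was near background at 3 months, over the bacterial median on 7 of 12 arrays and over the bacterial 95th percentile on 0 of 12 (2 of 12 at 1 month). At 1 month the same probe ran from 0.494 to 0.735 in control and from 0.533 to 0.835 in STZ retinas.

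The other Insr probe, GE21787, was under the limit and was lower in the 3M STZ retinas. It ran from 0.505 to 0.854 in 3M Control (median 0.749) and from 0.327 to 0.514 in 3M STZ (median 0.401). The groups touched at 1 array, since 5 of 6 STZ arrays lay below the lowest control array. The log2 fold change was -0.76 (SE 0.17, limma adjusted p = 0.00200 over all rat probes), against a background of 46.3% of all rat probes called in this fit, 32.1% higher and 14.2% lower. Dim probes as a whole were lower in the 3M STZ retinas: the 11824 rat probes under the limit had a median log2 difference of -0.44, and 83.09% of them were below 0. This probe stood at percentile 23.1 of those probes. It was called in all 24 fits that left out 1 array and in 10 of 11 other settings, the exception being the array's interquartile range as a covariate (-0.38, adjusted p = 0.758). Only 4 of the 12 arrays at 3 months were above the median of their bacterial probes, all 4 in the control group, so the 3 month values of this probe lie at the level of background.

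Igf1r encodes the receptor that carries most IGF signaling. It was over the bacterial 95th percentile on 24 of 24 arrays and its range at 1 month overlapped that at 3 months. Its lowest, median and highest scaled intensity were 1.499, 2.25 and 2.52 in 1M Control and 1.41, 1.94 and 2.34 in 1M STZ retinas. They were 2.08, 2.15 and 2.47 in 3M Control and 1.66, 2.50 and 3.70 in 3M STZ retinas. At 3 months the 6 STZ arrays straddled the control arrays, with 3 above the highest and 2 below the lowest. The SD of log2 scaled intensity was 0.43 in 3M STZ and 0.11 in 3M Control. The log2 fold change was 0.14 (SE 0.18, limma adjusted p = 0.520), 0.31 below the median of all tested probes, and it was -0.31 (adjusted p = 0.169) after quantile normalization and -0.48 (adjusted p = 0.569) with the array's interquartile range as a covariate.

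Irs1, the substrate that couples the receptors to PI3-kinase, had 2 probes, both under the limit. Probe GE20090 ran from 0.160 to 0.203 in 1M Control, 0.168 to 0.226 in 1M STZ, 0.565 to 2.17 in 3M Control (median 0.844) and 0.478 to 0.793 in 3M STZ (median 0.638). Its log2 fold change at 3 months was -0.53 (SE 0.24, limma adjusted p = 0.0699 over all rat probes). Without 3M Control replicate 2, which held the value of 2.17, it was -0.27 (adjusted p = 0.240), and it passed the threshold without 3M Control replicate 4, 5 or 6 (-0.66, -0.65 and -0.64, adjusted p = 0.0279, 0.0340 and 0.0282).

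Probe GE22141 of Irs1 was below the median of the bacterial probes on all 12 arrays at 3 months. It ran from 0.464 to 0.562 in 3M Control and from 0.399 to 0.486 in 3M STZ, with 5 of 6 STZ arrays below the lowest control array. With both groups below background no difference is given for this probe (adjusted p = 0.310 in the fit of all rat probes).

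**Figure D2:**
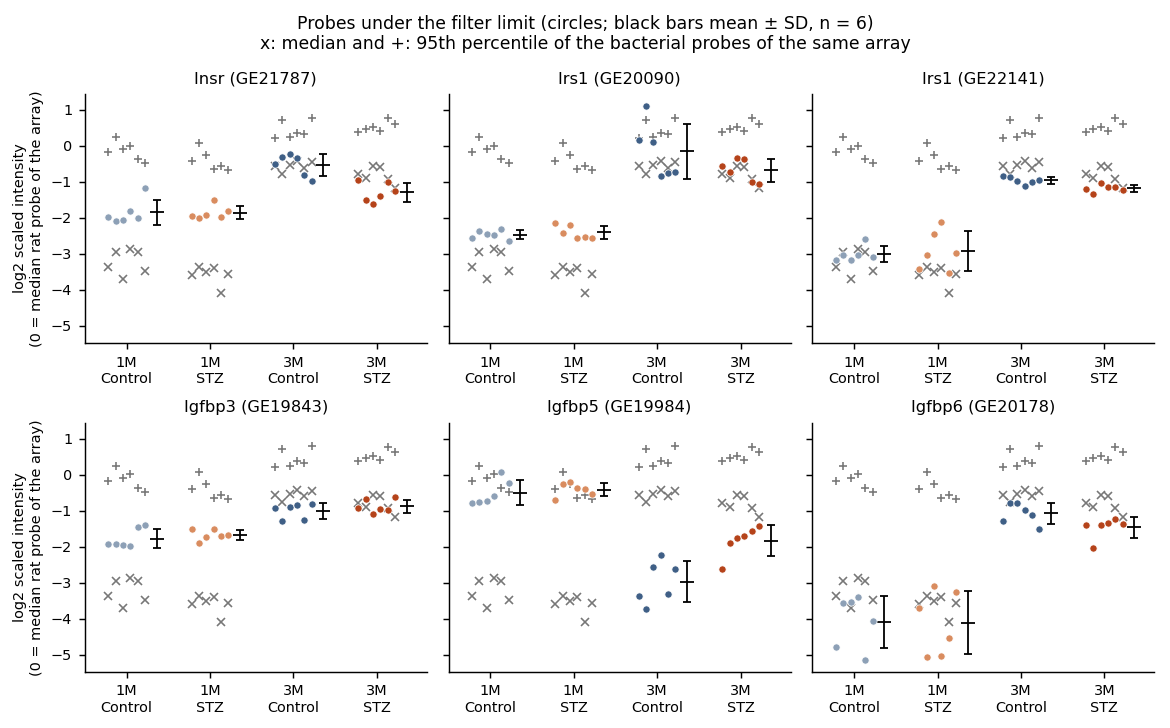
Log2 scaled intensity (y axis, 0 = the median rat probe of the array) of the 6 member probes under the limit, one circle per array in the 4 groups (x axis), with the group mean and SD in black (n = 6). Grey crosses and plus signs give the median and the 95th percentile of the bacterial probes of each array. The crosses lie higher on the 3 month arrays, where Igfbp5, Igfbp6 and Irs1 (GE22141) are below them on all 12 arrays.

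Igfbp3, the main carrier of IGFs in blood, was the single tested member called. Its probe GE21794 had a lowest, median and highest scaled intensity of 0.848, 0.903 and 1.24 in 1M Control and 0.843, 0.964 and 1.15 in 1M STZ retinas. At 3 months these were 0.236, 0.734 and 0.832 in control and 0.725, 0.841 and 1.05 in STZ retinas. The groups overlapped, with 4 of 6 STZ arrays above the highest control array, and the value of 0.236 on 3M Control replicate 2 lay far below the other 5 control arrays.

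The log2 fold change of Igfbp3 was 0.50 (SE 0.21, 95% interval 0.072 to 0.93, limma adjusted p = 0.0450), a 1.42-fold difference. This was 0.058 above the median of all tested probes, at percentile 56.6 of them. The call was lost in 7 of the 24 fits that left out 1 array. Without 3M Control replicate 2 the value was 0.23 (adjusted p = 0.149). The other 6 left it between 0.45 and 0.51, with an adjusted p of 0.0501 without 1M STZ replicate 6, 0.0635 without 3M Control replicate 3, and 0.0944, 0.0620, 0.0640 and 0.0867 without 3M STZ replicates 2, 3, 5 and 6. The call also depended on the test: the methods' test gave an unadjusted p of 0.136 and 0 of 5 members called, beside 16.9% of all tested probes. At 3 months the probe was above the median of the bacterial probes on 10 of 12 arrays and above their 95th percentile on 0 of 12. The second Igfbp3 probe, GE19843, was under the limit, ran from 0.412 to 0.569 in 3M Control and from 0.468 to 0.645 in 3M STZ, and had a log2 fold change of 0.13 (SE 0.14, adjusted p = 0.426). After quantile normalization of all rat probes it was called higher (0.62, limma adjusted p = 0.00781), but not within each time point (0.33, adjusted p = 0.0660). It was above the bacterial median on 2 of 12 arrays at 3 months.

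Igfbp5, a binding protein found in many tissues and tied to the extracellular matrix, gave very low signal at 3 months, below the median of the bacterial probes on all 12 arrays. Its scaled intensity was 0.0976, 0.0758, 0.168, 0.213, 0.101 and 0.161 on 3M Control arrays 1 to 6 and 0.162, 0.268, 0.297, 0.306, 0.337 and 0.372 on 3M STZ arrays 1 to 6. All 6 STZ arrays were above the control median and 5 were above the highest control array. The fit of all rat probes called it higher in STZ (limma adjusted p = 0.00110), as did all 24 fits that left out 1 array and 10 of 11 other settings, the exception being the array's interquartile range as a covariate (adjusted p = 0.669). With both groups below background, no size is given for this difference.

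At 1 month the same Igfbp5 probe ran from 0.582 to 1.05 in control and from 0.614 to 0.870 in STZ retinas, above every 3 month array and above the bacterial median on 12 of 12, with a log2 fold change of 0.091 (SE 0.23, adjusted p = 0.9999).

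Igfbp6, a binding protein that prefers Igf2, was at background at both times. It was above the median of the bacterial probes on 3 of 12 arrays at 1 month and 0 of 12 at 3 months. Its range was 0.353 to 0.581 in 3M Control and 0.242 to 0.424 in 3M STZ, and it was not called (adjusted p = 0.320). With a floor of 0.1 in place of 0.01 it was called lower in STZ (limma adjusted p = 0.0198), with both groups below background.

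**Figure D3:**
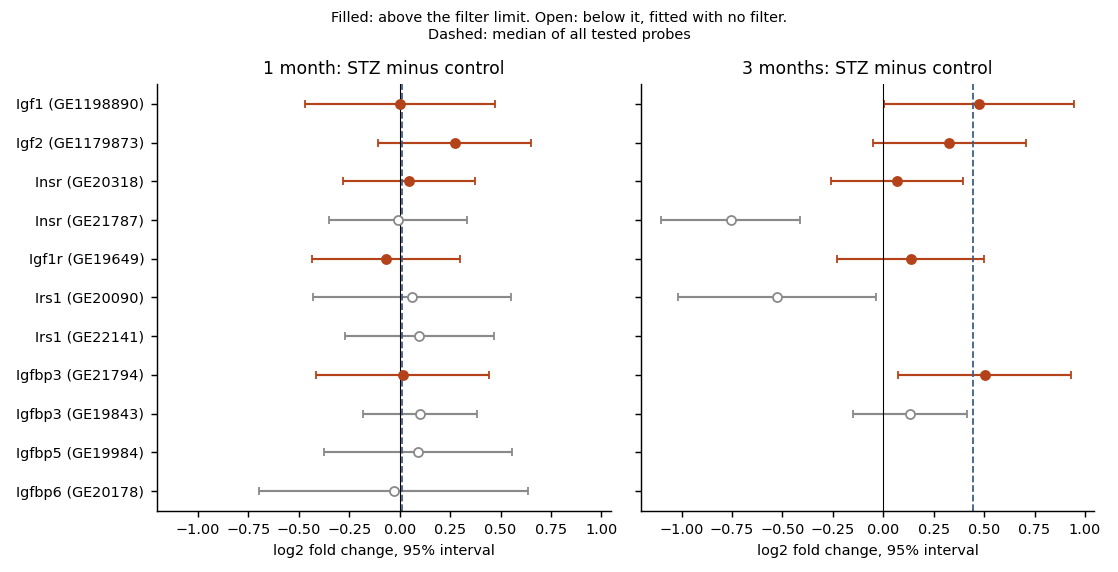
Log2 fold change, STZ minus control (x axis), with its 95% interval for the 11 member probes (y axis) at 1 month and 3 months. Filled points were tested above the limit and open points come from the fit of all rat probes. At 1 month every interval includes 0. At 3 months Igfbp3 (GE21794), Igf1 and Igf2 lie near the dashed median of all tested probes (0.44). Of the 3 month points shown, Insr (GE21787) lies farthest from 0, with values at the level of background. Igfbp5, Igfbp6 and Irs1 (GE22141) have no 3 month point because both groups were below the median of the bacterial probes.

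An interaction term asked whether the STZ effect was the same at 1 and 3 months. Of the 5 tested members 0 differed by limma (adjusted p from 0.203 for Igfbp3 to 0.947 for Insr), 0 had an unadjusted p under 0.05, and the background was 15.5% of all tested probes (14.8% higher, 0.731% lower). In the fit of all rat probes, with a background of 10.3% (6.97% higher, 3.29% lower), Igfbp5 (adjusted p = 0.0428) and Insr GE21787 (adjusted p = 0.0462) passed. These calls held in only 6 and 5 of the 24 fits that left out 1 array, with adjusted p up to 0.0768 and 0.0818 in the rest, and in 5 of 8 other settings each.

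The normalization set the direction of several members at 3 months. Quantile normalization lowered the median of all tested probes from 0.44 to 0.16 and called 2 of the 5 members, Igfbp3 higher and Igf2 lower, against a background of 31.5% (24.6% higher, 6.92% lower). With the array's interquartile range as a covariate 0 of 5 members and 0 of the 22025 tested probes were called at 3 months, and 1934 had an unadjusted p under 0.05. The interquartile range itself barely overlapped between the 3M Control and 3M STZ arrays, and its part in the result was not tested.

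**Figure D4:**
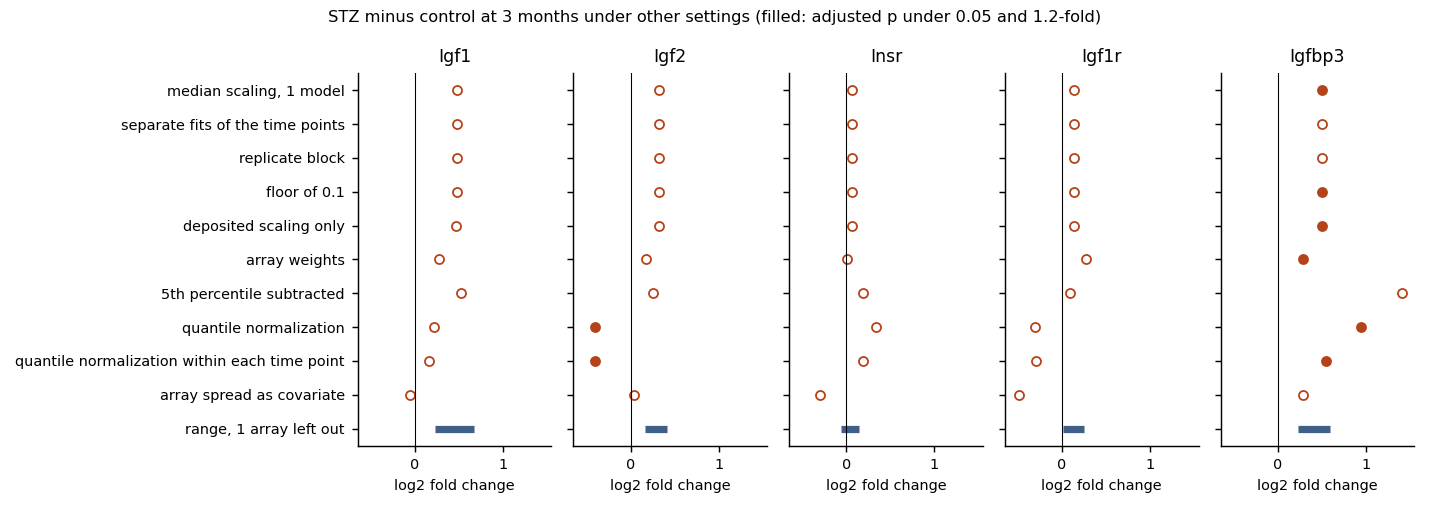
Log2 fold change at 3 months, STZ minus control (x axis), of the 5 tested members under each setting (y axis). Filled points passed the call rule on adjusted p and fold, and the blue bar is the range over the 24 fits with 1 array left out. Igfbp3 stays above 0 in all settings shown, and Igf2 and Igf1r turn negative after quantile normalization.

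Other genes of the pathway came from a list of 65, of which 37 had a matched probe and 28 a tested one. At 1 month 0 of 28 were called by limma, with 2 at an unadjusted p under 0.05 and 0 called by the methods' test, and their median log2 fold change was -0.039 (all tested probes 0.013). The highest was Sh2b2 (0.41, SE 0.19) and the lowest Trib3, an inhibitor of Akt (-0.58, SE 0.25), each with an adjusted p of 0.9999. At 3 months 17 of 28 were called, 14 higher and 3 lower, which is 60.7% beside the 54.1% of all tested probes. Their median log2 fold change was 0.49 beside 0.44. Without 3M Control replicate 2 the count was 15 of 28.

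Between receptor and Akt the calls went both ways. Pik3cb, a catalytic subunit of PI3-kinase, was lower: its lowest, median and highest scaled intensity were 1.203, 1.65 and 2.89 in 3M Control and 0.815, 1.11 and 1.58 in 3M STZ, with 5 of 6 STZ arrays below the lowest control array (log2 fold change -0.59, SE 0.19, limma adjusted p = 0.0122). This probe was near background, with 6 of the 24 arrays over the bacterial 95th percentile.

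Inppl1, an inositol phosphatase that acts against Akt signaling, was higher (0.76, SE 0.23, adjusted p = 0.0103), while Akt1 (0.46, adjusted p = 0.0666) and Pdpk1, the kinase that activates Akt (0.41, adjusted p = 0.120), did not pass the test. Of the adaptors, Sh2b2 was higher (0.70, SE 0.19, adjusted p = 0.00419) and Sh2b1 lower (-0.42, SE 0.18, adjusted p = 0.0469). Their probes were over the bacterial 95th percentile on 15 and 18 of the 24 arrays. At 3 months the scaled intensity of Sh2b2 ran from 0.494 to 1.76, beside a bacterial 95th percentile of 1.16 to 1.72. The call of Sh2b1 held in 8 of 24 fits with 1 array left out, over which it ran from -0.51 to -0.34 with an adjusted p up to 0.121. Igf2r, the receptor that clears Igf2, was higher (0.64, SE 0.20, adjusted p = 0.0107). Ptpn1, the phosphatase that removes phosphate from the insulin receptor, was higher as well (0.81, SE 0.22, adjusted p = 0.00438), with 2.58, 4.29 and 5.86 in 3M Control and 4.90, 7.38 and 8.45 in 3M STZ.

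Downstream of Akt, 5 of 7 tested genes of mTOR and translation were called higher, beside 50.5% of all tested probes. Eif4ebp1, the translation repressor that mTOR switches off, had 0.435, 0.974 and 1.76 in 3M Control and 1.47, 2.09 and 2.91 in 3M STZ (log2 fold change 1.09, SE 0.25, adjusted p = 0.00155). Its probe was over the bacterial 95th percentile on 20 of the 24 arrays. Rps6, the ribosomal protein that S6 kinase phosphorylates, had 11.1, 18.2 and 27.4 in 3M Control and 28.8, 35.7 and 45.8 in 3M STZ (1.05, SE 0.19, adjusted p = 0.000253). Rps6 and the MAP kinase kinase Map2k2 were the 2 of 28 genes whose groups did not overlap at 3 months, beside 10.2% of all tested probes. Rheb, the switch that activates mTOR (0.69), and Tsc2, which restrains Rheb (0.60), were both higher. Mtor itself was called on 1 probe (0.54, adjusted p = 0.0399), in 17 of 24 fits with 1 array left out, and not on its other tested probe (0.37, adjusted p = 0.160). Without 3M Control replicate 1, 2 or 3 or 3M STZ replicate 2, 3, 5 or 6 the first Mtor probe was not called either, with values from 0.32 upward.

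Of 6 tested genes of the Ras and MAP kinase branch 4 were called higher, beside 50.5% of all tested probes, among them the kinases Mapk3 (0.88, SE 0.18, adjusted p = 0.000608), Map2k2 (0.79) and Map2k1 (0.53, beside the median of 0.44 over all tested probes). Braf (0.17, adjusted p = 0.465) did not pass the test. Neither of the 2 tested Gsk3 genes passed, with Gsk3a at -0.47 (adjusted p = 0.0597) and Gsk3b at 0.30 (adjusted p = 0.225).

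After quantile normalization 7 of the 17 calls held, each with its direction (4 higher, 3 lower), and no other gene of the list was called. These 7 of 28 tested genes stand beside 31.5% of all tested probes (24.6% higher, 6.92% lower). Among them Eif4ebp1 (1.2002), Sh2b2 (0.95) and Mapk3 (0.63) were higher, and Pik3cb (-0.94) and Sh2b1 (-0.77) lower. Rps6 (0.30, adjusted p = 0.162), Map2k2 (0.17, adjusted p = 0.305) and Rheb (0.040, adjusted p = 0.819) were among the 10 that lost their call. So were Ptpn1 (0.29, adjusted p = 0.246), Inppl1 (0.28, 0.308) and Igf2r (0.27, 0.337). Mtor (0.24, 0.449), Tsc2 (0.13, 0.547) and Map2k1 (0.015, 0.937) were lost as well.

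**Figure D5:**
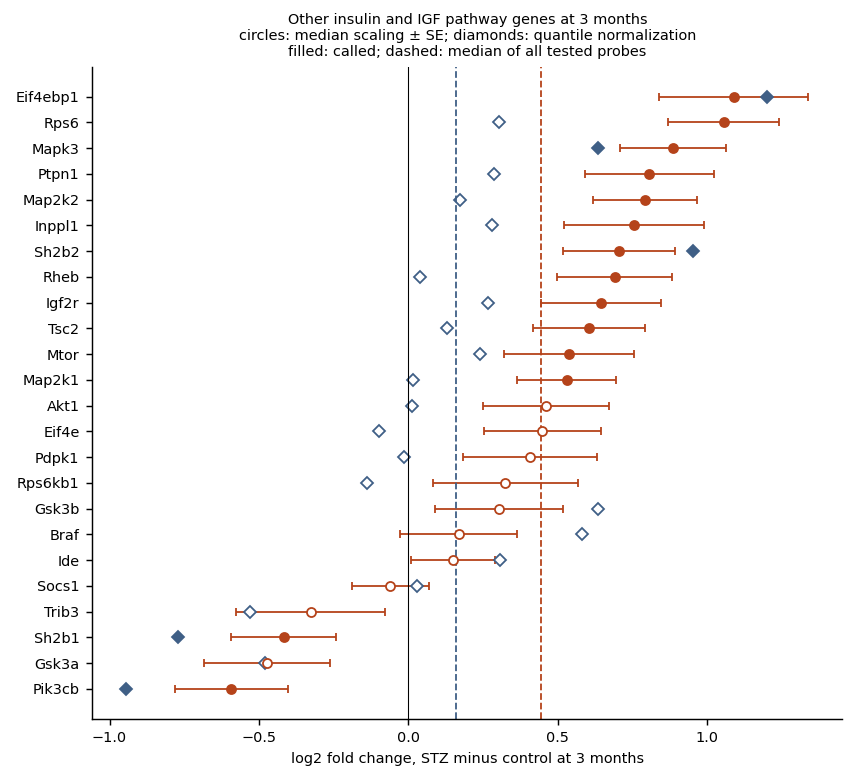
Log2 fold change at 3 months, STZ minus control (x axis), of 24 of the 28 other tested genes of the pathway (y axis), by median scaling (circles, with the SE) and by quantile normalization (diamonds). Filled symbols were called and dashed lines give the median of all tested probes under each scaling, 0.44 and 0.16. Eif4ebp1, Mapk3, Sh2b2, Sh2b1 and Pik3cb are filled under both.

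The tissue label was checked with markers. The 4 of 10 rod photoreceptor markers with a probe were bright on all arrays, with a summed scaled intensity between 157 and 444, and the brightest was Sag, the rod arrestin. Lens markers (4 of 10 with a probe) summed to 4.58 to 9.53 in 3M Control and 6.58 to 152 in 3M STZ. Mueller glia markers (6 of 7 with a probe) summed to 48.0 to 135 in 3M Control and 133 to 178 in 3M STZ, and endothelial markers (2 of 8) to 5.14 to 17.7 and 11.4 to 22.8. Fibroblast markers (2 of 7) summed to 5.41 to 7.71 and 6.24 to 7.47, and retinal pigment epithelium markers (3 of 8) to 3.07 to 13.4 and 2.70 to 97.7. The median retinal pigment epithelium sum was 6.30 in 3M Control and 3.91 in 3M STZ, where the Ttr probe alone reached 96.4. Markers of microglia and leukocytes (5 of 8) summed to 4.67 to 8.31 and 6.54 to 8.44, of pericytes and smooth muscle (4 of 6) to 4.02 to 5.51 and 5.00 to 5.83, and of erythrocytes (1 of 3) to 0.815 to 2.44 and 0.709 to 1.12. At 1 month only the Mueller glia sums did not overlap between the groups, with 151 to 163 in control and 171 to 279 in STZ retinas. The part of the markers in the differences of Igfbp3, Igfbp5 and the pathway genes was not tested.

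The genes whose arrays deviated most like each member were found over the 24 arrays, as the Pearson correlation of deviations from the group means, on quantile-normalized log2 values, among 3140 tested probes with a symbol. The closest were Wdr12 to Igf1 (r 0.944), Rhag to Igfbp3 (0.941), Entpd6 to Insr (0.894), Ufd1 to Igf1r (0.865) and Asic4 to Igf2 (0.768). The arrays share their scaling and spread, and without 3M Control replicate 2 the r of Igf1 with Wdr12 was 0.858 and that of Igfbp3 with Rhag 0.866, so these are descriptions with no p.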

How the data were processed

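Total RNA of whole retina was hybridised to 24 CodeLink arrays for the whole rat genome, labelled as biological replicates. The number of 1 month control rats is not settled. The authors' software excluded defective spots, subtracted the local background and scaled each array within itself, and the authors deposited the intensity before and after that scaling. The intensity before it was divided here by each array's median over its rat probes, floored at 0.01 and taken as log2. Rat probes above the 35th percentile of the median scaled intensity (0.554), with at least 4 values a group, were tested with limma 3.58.1 in R 4.3.3. On simulated data with the same 22025 probes the 3 month comparison recovered 99.5% of 200 changed probes and called 17 unchanged ones. Recovery of differences as small as those of the members was not tested. Precision is limited by 6 arrays a group and by signal over background. Symbols came from RefSeq accessions, which matched for 4674 of 5469 probes with one (4012 genes). The files name no genome build, so no coordinates are given. Named genes are the members, the called genes of the pathway list, its highest and lowest at each time, and the gene most alike each tested member. Other pathway genes were named after their values were seen. Single values of some pathway genes are not reported here, and the counts include them. Replicate numbers did not pair the arrays. Members and lists were chosen with earlier results of these data known. The alternatives were the methods' test, other scalings, filters, floors and models, and leaving out each array. Their combination with no filter on dim probes was chosen after seeing the data.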

Additional observations from a re-analysis of the deposited data

Results flagged for a closer look

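In 6 of 44 groups of 6 arrays (11 member probes in 4 groups each) the highest or the lowest scaled intensity lay far from the other 5, where chance alone gives about 1 group in 20. Igfbp3 (GE21794) was lowest at 0.236 on 3M Control replicate 2, and on the same array Irs1 (GE20090) was highest at 2.17. Igfbp6 was lowest at 0.242 on 3M STZ replicate 2. Insr (GE21787) was highest at 0.442 on 1M Control replicate 6 and at 0.352 on 1M STZ replicate 4. Irs1 (GE22141) was highest at 0.168 on 1M Control replicate 5.

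The STZ effect at 3 months differed from that at 1 month, by the limma interaction, for 2 member probes under the limit, on the log2 scale by -0.75 for Insr (GE21787, adjusted p = 0.0462) and by 1.05 for Igfbp5 (adjusted p = 0.0428). These calls held in 5 and 6 of 24 fits with 1 array left out. Both were lost with the array's interquartile range as a covariate and with quantile normalization within each time point, Insr also with the replicate block and Igfbp5 also with the 5th percentile subtracted. At 3 months Igfbp5 was above the median of the bacterial probes on 0 of 12 arrays and Insr (GE21787) on 4 of 12. The 1.05 of Igfbp5 is therefore a fitted value only and not the size of a change. The -0.75 of Insr (GE21787) rests on 3 month values at the level of background. The STZ effect also differed between the times for 5 of 28 pathway genes, 17.9% beside 15.5% of all tested probes. Among these, the differences were 1.18 for Rps6 (adjusted p = 0.0157), 1.16 for Ptpn1 (0.0254), 0.78 for Tsc2 (0.0460) and 0.72 for Map2k2 (0.0461). With 1 array left out, Rps6 and Ptpn1 were called in 24 of 24 fits, and Tsc2 and Map2k2 in 6 each. After quantile normalization none of these named genes was called. At 3 months the STZ arrays had a wider spread of intensity than the control arrays, and its part in these differences was not tested.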

How the results depend on the processing

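The count of members called at 1 month was 0 under every setting run. The count at 3 months was 1 by median scaling. It was 0 under the methods' test with and without adjustment, separate fits of the time points, the replicate block and the 5th percentile subtracted. It was also 0 with the array's interquartile range as a covariate and with detection on all 24 arrays (where Igfbp3 was not tested). Under both quantile normalizations it was 2. With no filter it was 2 of 11 probes, Insr (GE21787) and Igfbp5, both under the limit, and Igfbp3 (GE21794) was not called. The count was 0 to 2 with 1 array left out. The count of members with a different effect at 3 months was 2 of 11 probes with no filter, beside 10.3% of all rat probes. With array weights it was 1 of 5, beside 46.9% of all tested probes (15.5% in the main fit). The count of pathway genes called at 3 months, 17 of 28, was 4 under the methods' test and 3 after its adjustment. Of all tested probes 16.9% and 8.72% were called under these. The pathway count was 7 under both quantile normalizations, beside 31.5% of all tested probes over all arrays and 25.1% within each time point. It was 0 with the covariate, and 15 to 21 with 1 array left out.

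For Igfbp3 at 3 months the limma value of 0.50 kept its size but not its call in separate fits (adjusted p = 0.113), with the replicate block (0.0660) and with no filter (0.0569), and likewise under the methods' test (0.198). It was 1.41 (adjusted p = 0.0657) with the 5th percentile subtracted and 0.28 (0.802) with the covariate. With 1 array left out it ran from 0.23 to 0.59, Igf1 from 0.23 to 0.67 and Insr (GE20318) from -0.065 to 0.15. Igf2 ran from 0.16 to 0.41 and Igf1r from 0.015 to 0.25. The replicate numbers did not pair the arrays: 5 of 12 numbers had a correlation over 0.1 (-0.24 to 0.25) and 3 correlated best with their own. With the block 11622 of all tested probes were called at 3 months, beside 11911 without it.

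Signs that turned at 3 months were Igf2 to -0.40 and -0.41 (adjusted p = 0.0370 and 0.0392) under quantile normalization over all arrays and within each time point, Igf1r to -0.31 and -0.29 under the same, and with the covariate Igf1 (-0.060), Insr GE20318 (-0.30), Igf1r (-0.48) and Irs1 GE20090 (0.059). The fitted value of Irs1 GE22141, below background in both groups, turned to 0.031 and 0.016 under the quantile normalizations. The cause was not tested. At 1 month Igf1 turned to -0.0074 and -0.0067 under the quantile normalizations and Insr GE20318 to -0.11 with array weights. With 1 array left out the 1 month values ran from -0.060 to 0.064 for Igf1, -0.15 to 0.024 for Igf1r, -0.037 to 0.087 for Igfbp3 and -0.023 to 0.11 for Insr, all near 0. At 3 months signal over background limited 7 member probes, all those of Irs1, Igfbp5, Igfbp6 and Insr and the second of Igfbp3 (GE19843), which were over the bacterial median on 0 to 8 of 12 arrays.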
